A study of Homo sapiens with 6 samples.

Results

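Acute-phase proteins are plasma proteins that hepatocytes make in larger or smaller amounts during inflammation. Interleukin-6, acting through its receptor and STAT3, raises a group that includes the fibrinogen chains and haptoglobin. Interleukin-1 and tumour necrosis factor, acting through NF-kB and C/EBP factors, raise a group that includes serum amyloid A. Both routes meet at the promoters of many of these genes, next to sites for liver factors such as HNF1.

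The gene set described here was a list of 10 hepatic acute-phase genes, taken by symbol and drawn up with earlier results of these data known: FGA, FGB, FGG, HP, HPX, ORM1, ORM2, SERPINA3, SAA1 and LCN2. Measured were 9 of the 10 among 16305 genes, and SERPINA3 was not analysed here. The 4 genes FGA, FGB, FGG and HP stand for the fibrinogen and haptoglobin type, and SAA1 and LCN2 for the NF-kB driven type. The samples were Huh7SR cells, a sorafenib-resistant pool (Huh7-R in the study) that was derived from the human hepatocellular carcinoma line Huh7 by long exposure to sorafenib. RNA-seq was performed on 3 samples treated with fostamatinib, an inhibitor of spleen tyrosine kinase, and 3 treated with the solvent DMSO. The study reports that it found no protein of this kinase in Huh7 cells. Both labels give 2 µM and 24 h. The labels state that treatments were applied in triplicate but not whether the cultures were independent, so p-values may measure only the spread between wells. The comparison asks which genes change when the resistant cells are exposed to the drug.

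Each library held 13303451 to 15272737 reads on the genes kept by the authors' filter. Of 10 hepatocyte markers, 10 were measured, led by AFP and APOB, and their summed level was 4065 to 4331 CPM (read counts scaled by library size) with DMSO and 5112 to 5456 CPM with fostamatinib. Of 11 leukocyte markers, 3 were measured (LYZ, ITGAM and CD14), with a sum of 17.7 to 19.0 CPM against 15.1 to 17.0 CPM. The other 8, among them PTPRC, S100A8 and MPO, were not analysed here.

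Fostamatinib raised the transcripts of all 3 fibrinogen chains, lowered those of haptoglobin by a factor of 1.88, and left SAA1 and LCN2 near DMSO levels. FGA rose most, 2.45-fold, whereas SAA1 fell by a factor of 1.15 and LCN2 did not pass the test. SAA2, a gene related to SAA1 but outside the set, fell by a factor of 2.96. Reads can have been divided between SAA1 and SAA2, so neither value alone is certain. A list of NF-kB targets, also drawn up with earlier results of these data known, had a median log2 fold change of -1.06. Of the 9 genes, 3 were higher, 3 lower and 3 did not pass an adjusted p of 0.05 (limma with a mean-variance trend, Benjamini-Hochberg over all genes). The same test called 47.8% of all 16305 genes, 23.3% as higher and 24.5% as lower. Among the 8724 genes averaging 200 or more reads, a depth that all 9 genes reached, it called 63.2%, 29.3% as higher and 33.8% as lower. By the ranges of the samples, 3 of the 9 genes lay wholly higher, 3 wholly lower and 3 overlapped. Groups did not overlap for 54.1% of all genes (26.8% higher, 27.4% lower) and for 67.4% of those averaging 200 or more reads (31.4% higher, 36.0% lower). A count of 6 among 9 is thus near the share of all genes at this depth, as are the counts of 3 higher and 3 lower. The direction and size of each gene are described below. The median log2 fold change was -0.03 over the 9 genes and 0.0015 over all genes.

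**Figure D1:**
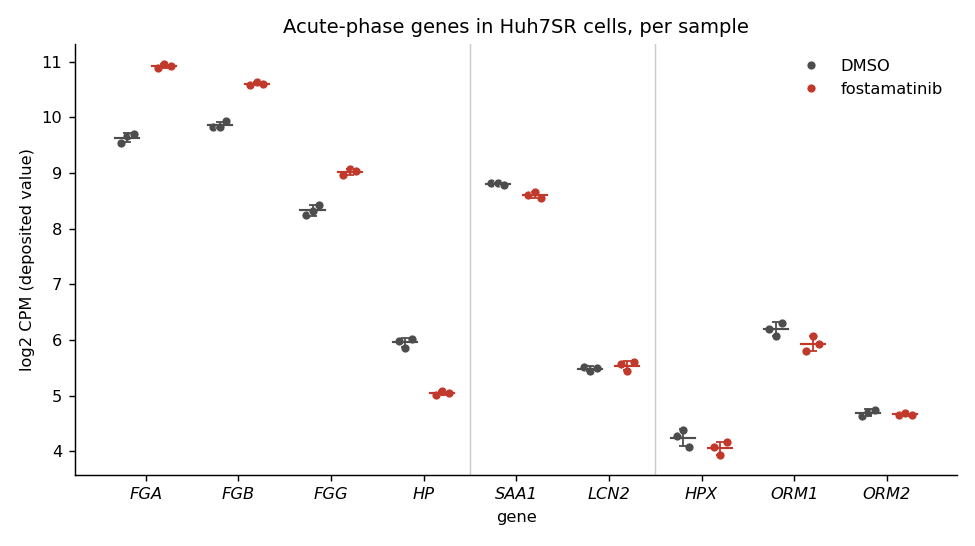
Deposited log2 CPM (vertical axis) of the 9 measured genes in each DMSO sample (grey) and each fostamatinib sample (red). Horizontal lines are means, bars are SD of 3 samples, and vertical grey lines part the fibrinogen and haptoglobin type, the NF-kB driven type and the other genes. The groups stand clear of each other for FGA, FGB, FGG, HP and SAA1, lie next to each other for ORM1, and overlap for LCN2, HPX and ORM2.

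Fibrinogen is a hexamer of 2 copies each of 3 chains, which thrombin converts to fibrin, and its genes lie side by side on chromosome 4. On GRCh37, FGB (ENSG00000171564) runs from 155484163 to 155493959 on the + strand. FGA (ENSG00000171560) follows from 155504278 to 155511894 and FGG (ENSG00000171557) from 155525286 to 155534119, both on the - strand. The sequences before the starts of the 3 genes are shown because the 3 chains rose together, with that of LCN2 as a gene that did not pass the test. Each is the 250 bases upstream of a RefSeq start (build GRCh38.p14), printed 5′ to 3′ along the gene: chr4:154590743-154590992 on the - strand for FGA, chr4:154562761-154563010 on the + strand for FGB, chr4:154612657-154612906 on the - strand for FGG and chr9:128149203-128149452 on the + strand for LCN2. RefSeq lists 2 starts for FGB, and the more downstream one was used. Capitals mark matches to 5 short patterns on either strand.
FGA: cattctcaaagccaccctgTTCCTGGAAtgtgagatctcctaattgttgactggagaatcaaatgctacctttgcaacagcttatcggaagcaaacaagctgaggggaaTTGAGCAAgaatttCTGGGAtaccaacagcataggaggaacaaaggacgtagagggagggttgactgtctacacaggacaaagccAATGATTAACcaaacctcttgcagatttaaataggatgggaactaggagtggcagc
FGB: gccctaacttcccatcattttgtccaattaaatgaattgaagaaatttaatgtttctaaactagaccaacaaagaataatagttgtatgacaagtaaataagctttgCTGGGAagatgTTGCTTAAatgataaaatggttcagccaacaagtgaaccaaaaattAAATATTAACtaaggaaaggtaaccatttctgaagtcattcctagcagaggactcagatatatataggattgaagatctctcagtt
FGG: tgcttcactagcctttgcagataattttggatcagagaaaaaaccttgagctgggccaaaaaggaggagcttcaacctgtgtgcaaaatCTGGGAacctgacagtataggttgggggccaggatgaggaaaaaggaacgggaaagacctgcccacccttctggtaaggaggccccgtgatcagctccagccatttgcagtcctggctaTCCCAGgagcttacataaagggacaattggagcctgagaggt
LCN2: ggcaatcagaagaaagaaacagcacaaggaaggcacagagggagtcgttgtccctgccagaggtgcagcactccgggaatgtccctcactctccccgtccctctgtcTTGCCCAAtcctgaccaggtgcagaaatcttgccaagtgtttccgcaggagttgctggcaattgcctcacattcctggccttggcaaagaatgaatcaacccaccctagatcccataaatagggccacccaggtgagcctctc

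The patterns searched were TTCNNNGAA for STAT3, CTGGGA for the core of the interleukin-6 response element, TTGCNNAA for C/EBP, GTTAAT followed by any 2 bases and TT for HNF1, and GGG followed by any 2 bases and TTTCC for NF-kB. TTCNNNGAA and CTGGGA can share bases, which they did not do in these sequences. CTGGGA was found in each fibrinogen promoter, at -127 to -122 in FGA, at -143 to -138 in FGB, and at -161 to -156 in FGG, counted from the base before the start as -1. FGG held it again on the opposite strand at -42 to -37. CTGGGA occurs in 28.7% of 35116 RefSeq promoter windows of this length, so a match is common. The STAT3 pattern was found in FGA at -231 to -223 and occurs in 6.57% of the windows. The HNF1 pattern was found in FGA at -56 to -47 and in FGB at -86 to -77, and occurs in 0.823% of the windows. The C/EBP pattern, present in 9.05% of the windows, was found in FGA at -141 to -134, in FGB at -132 to -125 and in LCN2 at -143 to -136. The NF-kB pattern, which 1.73% of the windows hold, matched in none of the promoters read. It is a strict pattern that misses sites with other letters, such as gggaatgtcc in LCN2. The lack of a match thus does not show that a promoter has no NF-kB site. The table of promoters matched 6 of the 9 measured genes, the remaining ones being HPX, with CTGGGA at -90 to -85 and at -74 to -69 and the C/EBP pattern at -203 to -196, and ORM1, with no match. Such matches describe letters and not binding.

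FGA, which encodes the alpha chain, stood at 742, 813 and 827 CPM with DMSO and at 1890, 1997 and 1939 CPM with fostamatinib. The lowest fostamatinib value was more than double the highest DMSO value. On the log2 CPM scale the mean moved from 9.63 ± 0.08 to 10.92 ± 0.04 (SD, n = 3 each), which is a log2 fold change of 1.29 (SE, the standard error, 0.036, limma adjusted p = 1.17e-25). In these bulk samples, more RNA per cell and more cells that make the transcript cannot be told apart. FGA was the one gene of the 9 to change more than 2-fold, which 7.13% of all genes did with an adjusted p under 0.05 (3.85% higher, 3.29% lower). At 200 or more reads this share was 3.18% (1.32% higher, 1.86% lower). Only 449 of the 16305 genes had a higher log2 fold change.

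FGB, the gene of the beta chain, was measured at 908, 906 and 977 CPM with DMSO and at 1526, 1590 and 1557 CPM with fostamatinib. All fostamatinib samples were higher, and the log2 fold change was 0.74 (SE 0.034, limma adjusted p = 1.58e-19), or 1.68-fold. FGG, the gene of the gamma chain, lay at 303, 319 and 346 CPM with DMSO and at 500, 538 and 523 CPM with fostamatinib. It rose by 0.69 on the log2 scale (SE 0.041, limma adjusted p = 2.49e-16), or 1.61-fold, again with no overlap. Together the 3 chains took up 0.197%, 0.204% and 0.215% of all reads with DMSO, against 0.389%, 0.412% and 0.400% with fostamatinib. The share of reads on fibrinogen thus nearly doubled.

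The 3 chains did not rise by the same amount. Within each sample, the log2 difference FGA minus FGB was -0.29, -0.16 and -0.24 with DMSO and 0.31, 0.33 and 0.32 with fostamatinib, so that FGA reads went from fewer than FGB reads to more in every sample. The ratio of FGA to FGB rose 1.46-fold and that of FGA to FGG 1.52-fold. Neither ratio overlapped between the groups (two-sided exact permutation p = 0.10, below which 3 samples against 3 cannot go, and 0.129 after adjustment over 9 pairs chosen after seeing the data). FGB minus FGG stood at 1.59, 1.51 and 1.50 with DMSO and at 1.61, 1.56 and 1.58 with fostamatinib. These values overlapped, and the ratio moved 1.04-fold (exact permutation p = 0.30, also 0.30 after adjustment). FGB and FGG thus moved by nearly the same factor, and FGA by a larger one.

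**Figure D2:**
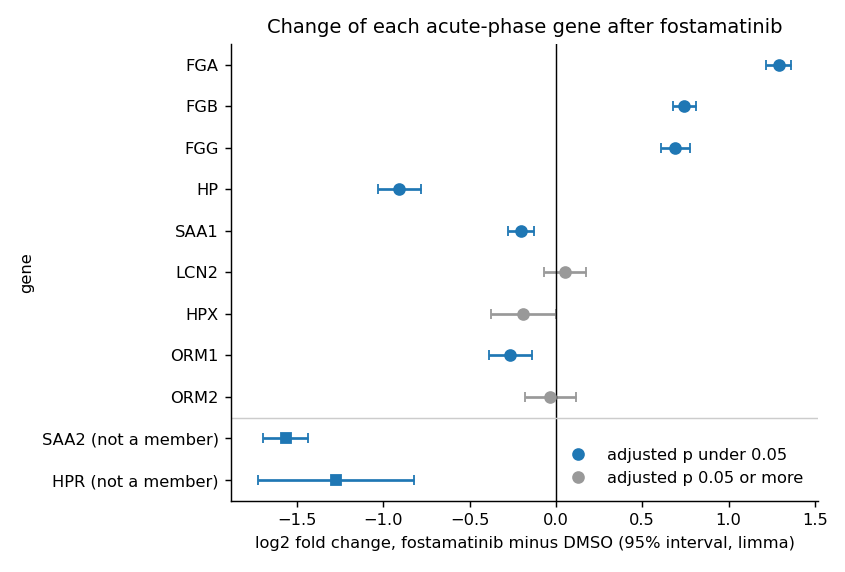
Log2 fold change after fostamatinib (horizontal axis) with its 95% interval from limma for the 9 measured genes and, below the line, the related genes SAA2 and HPR. Blue marks an adjusted p under 0.05: FGA at 1.29, FGB at 0.74 and FGG at 0.69 lie to the right of 0, HP at -0.91, ORM1 at -0.26 and SAA1 at -0.20 to the left.

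Haptoglobin binds free haemoglobin in plasma. HP (ENSG00000257017, chromosome 16 of GRCh37, 72088404 to 72094954, + strand) was measured at 63.2, 58.2 and 65.1 CPM with DMSO and at 32.3, 33.9 and 33.1 CPM with fostamatinib. No fostamatinib sample reached the lowest DMSO sample. Its log2 fold change was -0.91 (SE 0.061, limma adjusted p = 6.46e-15), in the direction opposite to the fibrinogen chains of the same type. The ratio of each chain to HP rose 4.59-fold for FGA, 3.14-fold for FGB and 3.03-fold for FGG, with no overlap between the groups (exact permutation p = 0.10, 0.129 after adjustment over the 9 pairs).

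Part of the HP transcript is shared with HPR, the haptoglobin-related gene next to it. Of the distinct 50-base windows (the read length is not given in the sources used here) of the HP transcripts, 11.2% occur in HPR transcripts, and 29.3% of the HPR windows occur in HP. HPR had 51, 54 and 67 reads with DMSO and 26, 25 and 16 reads with fostamatinib, a log2 fold change of -1.27 (SE 0.22, limma adjusted p = 1.06e-05). HPR was low beside HP, which had 871, 888 and 968 reads with DMSO and 445, 483 and 438 reads with fostamatinib, but how reads on the shared windows were divided is not known. TXNL4B overlaps HP on the opposite strand and had a log2 fold change of -0.01 (adjusted p = 0.889, limma). The library kit keeps the strand, while the strand setting of the counting is not given in the sources used here.

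SAA1 encodes serum amyloid A1, an apolipoprotein of high-density lipoprotein in inflammation. SAA1 (ENSG00000173432, chromosome 11 of GRCh37, 18287807 to 18291524, + strand) stood at 451, 450 and 443 CPM with DMSO and at 391, 403 and 375 CPM with fostamatinib. The groups did not overlap, yet the fall was small, by 0.20 on the log2 scale (SE 0.036, limma adjusted p = 1.66e-05). LCN2 encodes lipocalin 2, which binds iron-loaded bacterial siderophores. LCN2 (ENSG00000148346, chromosome 9 of GRCh37, 130911350 to 130915732, + strand) was at 45.8, 43.4 and 45.4 CPM with DMSO and at 47.3, 43.6 and 48.8 CPM with fostamatinib. These values overlapped, and the log2 fold change was 0.05 (SE 0.061, limma adjusted p = 0.501). Its 95% interval ran from 0.952-fold to 1.13-fold.

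SAA2, a gene related to SAA1 on the opposite strand, is not in the set but was read beside it. SAA2 (ENSG00000134339) had 955, 1147 and 1174 reads with DMSO and 349, 374 and 315 reads with fostamatinib. The fall was 1.57 on the log2 scale (SE 0.063, limma adjusted p = 6.20e-21), or a factor of 2.96, against a factor of 1.15 for SAA1. Within a sample, SAA1 minus SAA2 was 2.70, 2.58 and 2.49 with DMSO and 3.95, 3.94 and 3.98 with fostamatinib, a 2.57-fold rise in the ratio without overlap (exact permutation p = 0.10, 0.129 after adjustment over the 9 pairs). Of the 50-base windows of SAA1, 34.2% occur in SAA2, and 17.8% of the SAA2 windows occur in SAA1, so reads could have been divided between the 2 genes. The values of each gene alone are therefore uncertain. Their sum, from the same reads, was 520, 525 and 522 CPM with DMSO and 417, 429 and 398 CPM with fostamatinib. SAA4, the constitutive member of the locus, had 10, 7 and 11 reads with DMSO and 0, 4 and 3 reads with fostamatinib, and passed the filter on low counts through the DMSO group alone, so no test of it is given.

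The contrast between both types was read as the log2 difference of 2 genes within a sample, for 4 genes of the fibrinogen and haptoglobin type against SAA1 and LCN2, that is 8 pairs. None of the 8 overlapped between the groups (exact permutation p = 0.10 for each, which is the smallest possible, also after adjustment over the 8). In comparison, 58.4% of all other genes did not overlap when set against SAA1 in this way (44.6% higher, 13.8% lower), and 48.3% when set against LCN2 (19.8% higher, 28.4% lower). Each fibrinogen chain gained on both genes. The ratio to SAA1 rose 2.81-fold for FGA, 1.93-fold for FGB and 1.86-fold for FGG. Against LCN2 the rises were 2.36-fold, 1.61-fold and 1.56-fold. HP lost against both, with a change of its log2 difference of -0.71 against SAA1 and of -0.96 against LCN2. HP minus LCN2 changed sign, from 0.46, 0.42 and 0.52 to -0.55, -0.36 and -0.56. The 4 genes of the fibrinogen and haptoglobin type thus moved in both directions. SAA1 minus LCN2 went from 3.30, 3.37 and 3.29 to 3.05, 3.21 and 2.94, a change of -0.25 with no overlap (exact permutation p = 0.10, 0.129 after adjustment over the 9 pairs). With each sample left out in turn it ran from -0.33 to -0.19.

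**Figure D3:**
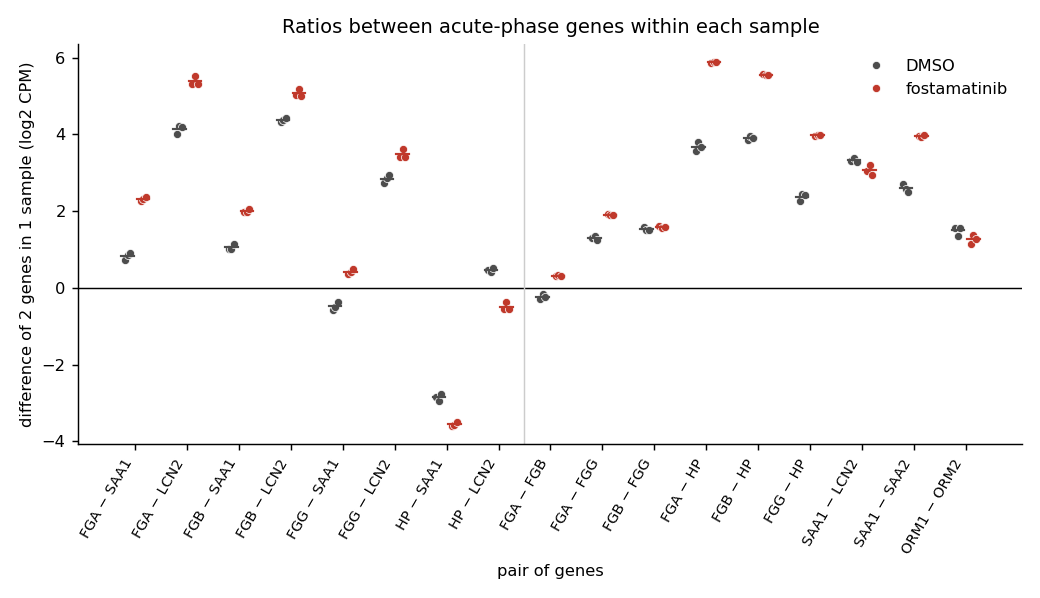
Difference in log2 CPM between 2 genes within each sample (vertical axis) for the 8 pairs across both types, left of the grey line, and 9 further pairs, right of it. Grey points are DMSO samples, red points fostamatinib samples and short lines their means. The 3 fibrinogen chains moved up against SAA1, LCN2 and HP, HP moved down against SAA1 and LCN2, and FGB minus FGG and ORM1 minus ORM2 overlapped.

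The 3 remaining genes changed little. ORM1 and ORM2 encode alpha-1-acid glycoproteins, which bind drugs and lipids in plasma. ORM1 (ENSG00000229314, chromosome 9 of GRCh37, 117085378 to 117088759, + strand) was measured at 73.5, 67.4 and 79.5 CPM with DMSO and at 55.8, 67.3 and 60.6 CPM with fostamatinib. Its highest fostamatinib value came just under its lowest DMSO value. The log2 fold change was -0.26 (SE 0.063, limma adjusted p = 0.000636), and without the mean-variance trend this call was lost (adjusted p = 0.0882, limma). ORM2 (ENSG00000228278, 117092149 to 117095531 on the same strand) stayed at 24.7, 26.2 and 26.8 CPM against 25.2, 25.7 and 25.0 CPM, with a log2 fold change of -0.03 (adjusted p = 0.729, limma). Of the ORM1 windows of 50 bases, 43.8% occur in ORM2, and 50.1% in the other direction, so that reads on this pair can also have been divided. ORM1 minus ORM2 was 1.57, 1.36 and 1.56 with DMSO and 1.14, 1.39 and 1.28 with fostamatinib, which overlapped (exact permutation p = 0.20, 0.225 after adjustment over the 9 pairs).

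HPX encodes hemopexin, which binds free heme. HPX (ENSG00000110169, chromosome 11 of GRCh37, 6452279 to 6463847, - strand) had 19.3, 20.8 and 17.0 CPM with DMSO and 16.9, 15.2 and 17.9 CPM with fostamatinib. The groups overlapped, and the log2 fold change of -0.19 (SE 0.091) did not pass after adjustment (adjusted p = 0.0896, limma). DMSO replicate 3 decided this call, since without it the value was -0.27 with an adjusted p of 0.0177 from limma. With 217 to 317 reads in each sample, HPX was the least covered of the 9 genes.

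Levels were compared between genes per length, as CPM divided by the length of the canonical transcript in kilobases (RPKM). With DMSO, SAA1 was highest at 865 ± 8.29 RPKM (SD, n = 3), followed by FGA at 360 ± 20.6, FGB at 256 ± 11.1 and FGG at 156 ± 10.4 RPKM. With fostamatinib, FGA led at 879 ± 24.4 RPKM, ahead of SAA1 at 752 ± 27.4, FGB at 428 ± 8.78 and FGG at 251 ± 9.06 RPKM. FGA and SAA1 thus exchanged the first rank. Next came ORM1 at 96.1 ± 7.92 RPKM with DMSO and 80.1 ± 7.62 RPKM with fostamatinib, and LCN2 at 54.7 ± 1.52 and 56.8 ± 3.24 RPKM. HP stood above ORM2 with DMSO, 40.5 ± 2.34 against 34.2 ± 1.42 RPKM, and under it with fostamatinib, 21.6 ± 0.502 against 33.4 ± 0.518 RPKM. HPX was lowest, at 12.1 ± 1.22 and 10.6 ± 0.852 RPKM. No neighbours in either order had overlapping sample ranges. The order depends on the length used: with the summed exons of all transcripts, FGB was above FGA with DMSO (213 against 203 RPKM). HP was then under ORM2 in both groups (11.3 against 34.2 RPKM with DMSO, 6.03 against 33.4 RPKM with fostamatinib), as was LCN2 (28.1 and 29.2 RPKM), so that HP and ORM2 did not exchange ranks. FGA still went from below SAA1 (203 against 422 RPKM) to above it (496 against 367 RPKM). The SAA1 level can also depend on how reads shared with SAA2 were divided. FGA was at percentile 99.7 of all genes with fostamatinib, and HP moved from percentile 88.2 to 78.7.

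Other genes listed as positive acute-phase genes went both ways. Of all genes 23.3% were called higher and 24.5% lower. Of 21 genes in this list 15 were tested, 4 rose, 6 fell and 5 did not pass, with a median log2 fold change of -0.21. These counts include SAA4 and MBL2, which passed the filter in 1 group alone, and 8 genes in place of 10 were called when both groups had to pass. A2M, a broad protease inhibitor, rose by 1.45 (SE 0.044), from 1369, 1545 and 1435 reads to 3530, 3900 and 3765 reads. In humans A2M is not an established positive acute-phase protein, so its place in this list is uncertain. FGL1, a fibrinogen-like liver protein, rose by 0.50. LBP, which carries bacterial lipopolysaccharide, had a log2 fold change of -1.78 (SE 0.21), from 60, 74 and 74 reads to 21, 19 and 16 reads, and SAA2 was named above. CRP, HAMP, ITIH3, C9, APCS and IL1RN were not analysed here. C3, the most abundant of the list, did not pass the test (log2 fold change 0.05, adjusted p = 0.173, limma).

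Negative acute-phase genes, whose products fall in inflammation, were higher. Of 12 genes 9 were tested, 8 rose and none fell, and SERPINA6 did not pass (log2 fold change 0.84, adjusted p = 0.0912, limma). The median was 0.65 against 0.0015 over all genes, and 23.3% of all genes were called higher. This list, too, was drawn up with earlier results of these data known, so its count is a description. APOA1, the main protein of high-density lipoprotein, rose by 3.19 (SE 0.16), from 20, 22 and 23 reads to 189, 185 and 194 reads. GC, which carries vitamin D, rose from a mean of 135.7 to 256.3 reads, transferrin (TF) rose by 0.65 and transthyretin (TTR) by 0.55. ALB, the gene of albumin, rose by 0.29 (SE 0.034). Of the 10 hepatocyte markers, 9 rose and TAT did not pass (log2 fold change 0.85, adjusted p = 0.0772, limma), with a median of 0.44. ALB, APOA1, TTR and TF are in both lists, so the marker list is not a separate observation. The fibrinogen chains thus moved together with other hepatocyte genes. The part of this wider change in the fibrinogen values was not tested. HP, SAA1 and ORM1 fell and did not share this change, and LCN2, HPX and ORM2 did not pass.

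**Figure D4:**
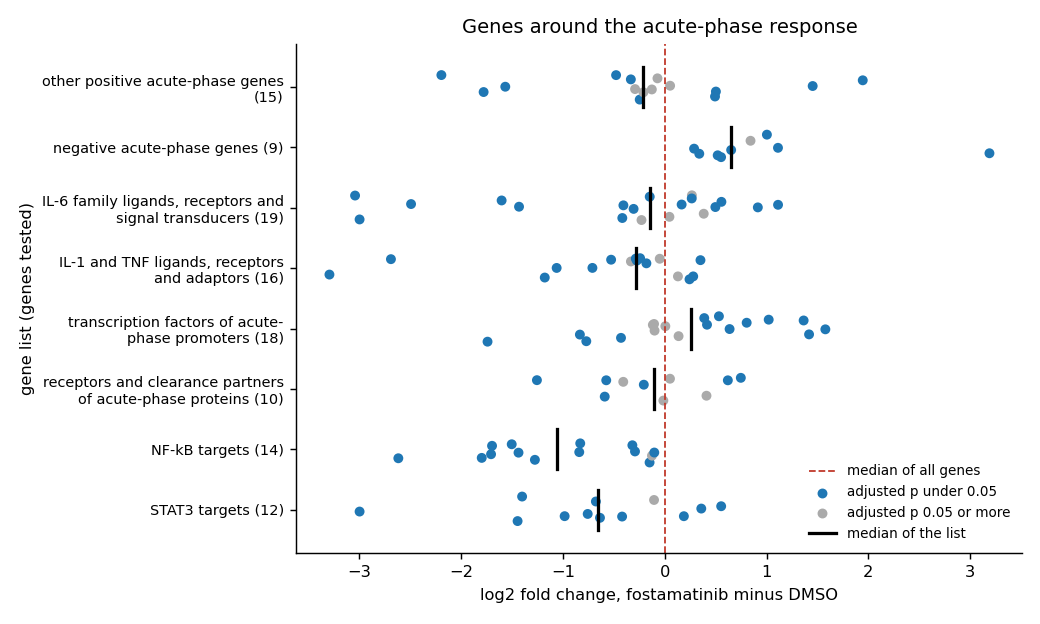
Log2 fold change after fostamatinib (horizontal axis) of each tested gene in 8 lists, with the number of genes tested in parentheses. Blue points have an adjusted p under 0.05 in limma, grey points do not, black bars are list medians and the dashed line is the median of all genes. Negative acute-phase genes lie above 0 with a median of 0.65, NF-kB targets below it with a median of -1.06, and the other lists spread to both sides.

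Genes of the interleukin-6 family moved in both directions, 6 higher, 9 lower and 4 not passing among 19 tested of 20 (median -0.15). The same test called 23.3% of all genes as higher and 24.5% as lower. Among genes averaging 200 or more reads it called 29.3% as higher and 33.8% as lower. IL6 itself had 48, 48 and 37 reads with DMSO and 6, 4 and 4 reads with fostamatinib. It passed the authors' filter on low counts through the DMSO group alone, where it was high, so its fall is given as a description with no test. LIF, a related cytokine, fell by 1.43 and OSMR, the oncostatin M receptor, by 1.60. The feedback inhibitors SOCS3 and SOCS1 fell, SOCS3 from 343, 405 and 374 to 39, 45 and 47 reads and SOCS1 by 2.49. IL6R, the interleukin-6 binding receptor chain, rose by 0.91, whereas the signalling chain IL6ST fell by 0.42 and STAT3 by 0.31. Each of these genes other than IL6 had an adjusted p under 0.05 in limma. Among genes that passed the filter in both groups, 14 of this list were called in place of 15. The 12 tested of 13 STAT3 targets comprised 3 higher and 8 lower genes (median -0.66), the largest falls after SOCS3 being those of FOS (-1.44), CCND1 (-1.40) and IL4R (-0.98). OSM and, among the targets, HAMP were not analysed here.

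Of 19 genes of the interleukin-1 and tumour necrosis factor route, 16 were tested, 3 rose and 10 fell (median -0.28), and 12 in place of 13 were called when both groups had to pass the filter on low counts, IL1A having passed through the DMSO group alone. The receptor chains IL1RAP, IL1R1 and TNFRSF1A fell by 1.18, 0.71 and 0.53, and the cytokine IL18 by 1.06. NF-kB targets fell more evenly, 13 of 14 tested being lower and none higher (median -1.06). Called lower were 24.5% of all genes and 33.8% of those averaging 200 or more reads. The target list was drawn up with earlier results of these data known, so its count is a description and no test. Its largest falls were those of CXCL8 (-2.62), CCL20 (-1.80), CXCL2 (-1.71) and SOD2 (-1.70). LCN2 and SAA1, with log2 fold changes of 0.05 and -0.20, were not part of that list and lay above its median.

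Transcription factors with sites in acute-phase promoters moved both ways, also within the C/EBP family. Of 18 tested, 9 rose, 4 fell and 5 did not pass (median 0.26), against 23.3% of all genes called higher and 24.5% lower. CEBPA rose by 1.58 (SE 0.082), while CEBPD fell by 1.74 (SE 0.062) and CEBPB by 0.83 (SE 0.053). ONECUT1 and FOXA3, both liver factors, rose by 1.42 and 1.36. Among receptors and clearance partners, 10 of 14 were tested, 2 rose and 4 fell (median -0.11), beside the same shares of all genes. LRP1, the receptor of hemopexin-heme complexes, rose by 0.75, and AGER by 0.62. ITGAM fell by 0.59 and LRP2, which takes up many filtered plasma proteins, by 0.57. CD163, the haptoglobin-haemoglobin receptor, was not analysed here.

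Genes near the acute-phase genes were read to see whether whole loci moved. Of 28 tested genes outside the set whose nearest edge lay within 100 kb of a member, 8 rose, 9 fell and 11 did not pass. The same test called 47.8% of all genes, 23.3% as higher and 24.5% as lower. Beside the fibrinogen cluster, PLRG1, 12611 bases from FGB, had a log2 fold change of -0.19 (adjusted p = 0.00163, limma), and DCHS2, on the same side but farther, of 0.70. Around HP, HPR and DHODH were lower (-1.27 and -1.24), DHX38 higher (0.24) and TXNL4B near 0. Around SAA1, SAA2 was lower, while HPS5, GTF2H1 and ST13P5 did not pass. SAA4, counted among the 9 that fell, was kept by the filter through the DMSO group alone. AKNA, 905 bases from ORM2, fell by 1.42, WHRN rose by 1.65 on 11.0 and 32.7 mean reads, and COL27A1 did not pass (-0.05, adjusted p = 0.593, limma). Around LCN2, of 8 genes 1 rose, 2 fell and 5 did not pass, and around HPX, of 6 genes 4 rose, 1 fell and 1 did not pass. Called neighbours of 1 locus thus differed in direction at every locus but that of SAA1.

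**Figure D5:**
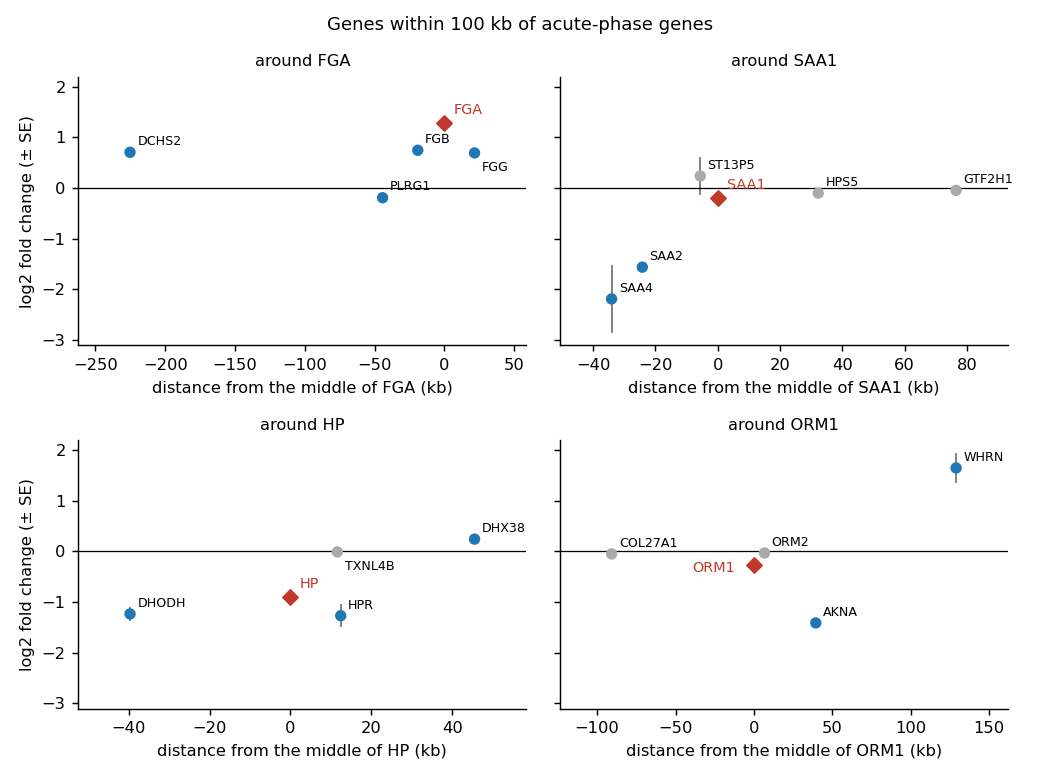
Log2 fold change (vertical axis, bars are the standard error from limma) of genes within 100 kb of FGA, SAA1, HP and ORM1, against the distance between gene middles in kb. Red diamonds are the named acute-phase genes, blue points have an adjusted p under 0.05 and grey points do not. The fibrinogen chains rose with PLRG1 slightly below 0, SAA2 lay far under SAA1, and AKNA lay far under ORM1 and ORM2.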

How the data were processed

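RNA was sequenced from 3 fostamatinib-treated and 3 DMSO-treated samples. The authors aligned with HISAT (genome hg19), quantified genes with featureCounts and GENCODE version 22, discarded genes whose count was below 5 in 2 or more of the 3 samples of each group, and applied TMM. The deposited values are log2 CPM, with 0.5 added to each count. Whole reads were recovered from them (100% within 0.05 of a whole number) to give depth, CPM and RPKM.

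Log2 fold changes came from limma 3.58.1 in R 4.3.3 (lmFit, eBayes with trend, Benjamini-Hochberg) on all 16305 genes without a block. Pairs of genes were compared by exact permutation. The scripts were tested on simulated data. Coordinates and transcripts are from GRCh37 with GENCODE 44, the build of hg19, which held 98.7% of the identifiers; promoters are from RefSeq on GRCh38.p14, whose coordinates were not mixed with those. Chi-square per degree of freedom between replicates was 1.65 to 3.74, above counting noise. Each library was treated as a sample in the tests. These values cannot show whether the cultures were independent, since wells of the same culture can also differ by more than counting noise. Libraries held 13303451 to 15272737 reads.

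Members and lists were chosen with earlier results of these data known. Named are all members, the 4 largest called changes of at least 50 reads in each list (IL6, STAT3, SOCS3, IL6R, IL6ST, CEBPB, CEBPD, CRP, SAA2 and ALB in any case), genes within 100 kb, and HPR; C3, SAA4, MBL2, IL1A, OSM, CD163 and the markers were added after their values were seen. Alternatives were limma-voom, no trend, other scalings, pseudocounts and filters, the replicate number as a block, each sample left out, and a 2-fold limit.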

Additional observations from a re-analysis of the deposited data

How the results depend on the processing

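Under every alternative run the direction of each of the 9 genes stayed as reported. Without the mean-variance trend ORM1 lost its call (log2 fold change -0.26, adjusted p = 0.0882, limma), which left 0 of the 3 other genes (HPX, ORM1 and ORM2) called against 1. The cause was not tested. In the same run 6382 genes in place of 7794 were called. The members still called had larger adjusted p-values, from 0.000251 for FGA to 0.0222 for SAA1 (limma). With each sample left out in turn, HPX ran from -0.27 to -0.12, the calls among these 3 genes from 1 to 2, and the calls over all genes from 6958 to 7480. With the replicate number as a block, 6 members and 7977 genes were called and no member's call changed. The labels give both groups the same numbers. Deviations of same-numbered samples correlated by -0.019 to 0.028, and those of differently numbered samples by -0.057 to 0.046. Whether same-numbered samples shared a plate or batch cannot be read from these values. With limma's treat against a 2-fold change, which asks for a larger effect by construction, 295 genes, 1 member (FGA, of the fibrinogen and haptoglobin type) and 0 of the NF-kB driven type and of the other members were called. Calls in the lists were then 3 for other positive and 1 for negative acute-phase genes, 5 for the IL-6 family, 2 for IL-1 and TNF, 3 for transcription factors, 0 for receptors, 7 for NF-kB targets, 2 for STAT3 targets, 1 for hepatocyte and 1 for biliary markers, and 0 for stellate, leukocyte and endothelial markers. No run without a filter was made, since the files used here are already filtered.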

Other observations

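Other marker lists were small or mixed, while 23.3% of all genes were called higher and 24.5% lower. Of 6 biliary or progenitor markers, 2 rose and 2 fell after fostamatinib, among them SPP1, the gene of osteopontin, at -1.82 on the log2 scale (SE 0.12, limma adjusted p = 9.64e-15), from a mean of 226.0 to 59.3 reads. SOX9, a progenitor factor, fell by 0.47 and KRT19 rose by 0.25. Of 7 stellate or fibroblast markers 5 were tested, COL1A2 and PDGFRB rose, by 0.37 and 0.95, and LUM fell by 0.40. Of 6 endothelial markers 1 was tested, PECAM1, which rose by 0.51. Of the 3 leukocyte markers tested, ITGAM fell and the other two did not pass. These genes were named after their values were seen, and the summed levels of the biliary list were 297 to 314 CPM with DMSO and 334 to 342 CPM with fostamatinib.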
